A study of Mus musculus with 4 samples.

Results

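Cr2 (complement receptor 2, CD21) was followed here in B-2 cells of the mouse peritoneal cavity. The cells were chosen from droplet barcodes of 2 single-cell expression libraries by their own unique molecular identifiers (UMIs, counts of captured RNA molecules). A barcode had to hold at least 200 genes, under 10% mitochondrial UMIs, 3 or more UMIs of Cd79a (a chain of the B-cell receptor complex) and 1 or more of Fcer2a (CD23), with no UMI of the B-1 markers Bhlhe41, Zbtb32 and Zcwpw1 and none of the Cd3 chains. These conditions are called the gate. Barcodes of the gate with 2 or more Cr2 UMIs are the members. They numbered 103 of 1250 gated barcodes in the wild-type (WT) library and 112 of 2601 in the knockout (KO) library, so 215 of all 32603 deposited barcodes. The comparison cells were gated barcodes with Cr2 at 0, of which there were 940 and 2086.

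CD45-positive cells had been sorted from peritoneal lavage fluid of WT and KO mice, and the mice of both genotypes ate a high-fat diet that began at 4 weeks of age and lasted 3 months. Each genotype has 1 expression library and 1 B-cell receptor library, and how many mice were pooled into each is not stated in the labels. With 1 library per genotype there is no test and no p-value for anything below, and intervals are 95% intervals that cover counting error only.

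Cr2 on B cells binds fragments of complement C3 and joins a co-receptor that includes CD81 and lowers the amount of antigen needed for activation. In mice the same gene also gives rise to CD35. Follicular B-2 cells carry it at a moderate level and marginal zone B cells of the spleen at a high level, while peritoneal B-1 cells carry less. CD23, the low-affinity IgE receptor, is a marker of follicular B-2 cells.

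The expression libraries held 81817635 (WT) and 103953298 (KO) UMIs, with medians of 6362 and 3298 per barcode. They shared 293 barcode sequences, among them 3 WT and 2 KO members. Members held medians of 4868 and 4784.5 UMIs, against 3740.5 and 2478.5 in the Cr2 0 barcodes of the gate. Each member was therefore paired with the Cr2 0 barcode of the same library nearest to it in total UMIs, which gave medians of 4870 and 4784. The summed depth of the members was 597660 UMIs in WT and 601381 in KO. Levels are given in CPM, a gene's share of the summed UMIs scaled to the same total for every group, and ratios are member CPM to matched Cr2 0 CPM.

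The number of members went with depth. At whole depth they made up 8.24% (6.78 to 9.90) of the gate in WT and 4.31% (3.56 to 5.16) in KO. After every gated barcode was thinned to 2000 UMIs, leaving out 55 and 837 shallower ones, barcodes with 2 or more Cr2 UMIs made up 2.09% (1.36 to 3.07) in WT and 2.15% (1.53 to 2.94) in KO. Any Cr2 UMI was then found in 13.6% and 15.2% of barcodes. The whole-depth intervals of the libraries do not overlap and the thinned ones do.

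**Figure D1:**
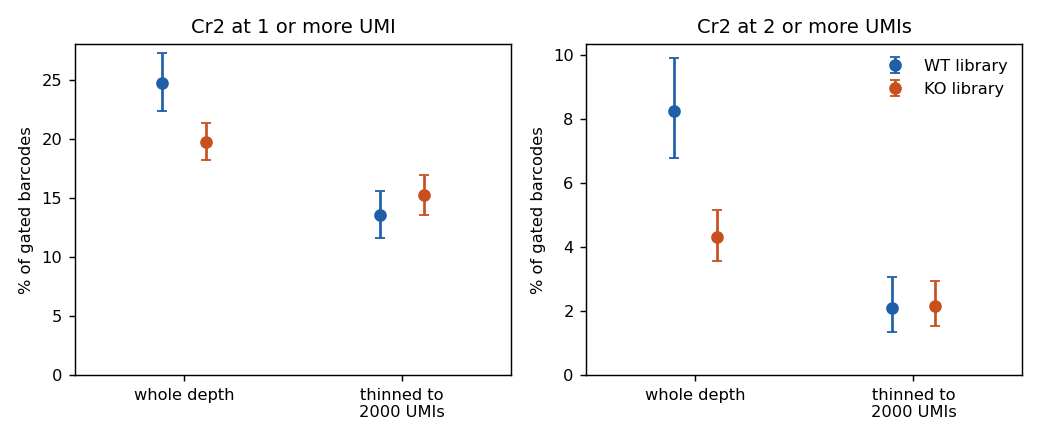
Share of gated barcodes with 1 or more (left) and 2 or more (right) Cr2 UMIs, in % on axes from 0, at whole depth and after thinning to 2000 UMIs. Points are the 2 libraries and bars are exact Clopper-Pearson 95% intervals; at 2 or more UMIs the libraries are at 8.24% and 4.31% before thinning and at 2.09% and 2.15% after it.

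The cutoff divides a continuous range of low counts. Just inside it were 67 WT and 86 KO barcodes with exactly 2 Cr2 UMIs, and just outside it 207 and 403 with 1. The highest count in 1 barcode was 6 in WT and 7 in KO. Of the members deep enough to be thinned, 25 of 102 in WT and 38 of 103 in KO still held 2 or more Cr2 UMIs, and 30 and 22 held none. Across thinned barcodes the variance of Cr2 was 1.20 times its mean in WT and 1.14 times in KO, above that of 97.7% and 95.3% of the genes of like mean. Cr2 was thus more uneven between barcodes than most genes of its level. In T barcodes, which should lack Cr2, 0.17% (WT, median depth 4450 UMIs) and 0.43% (KO, median 2331.5) held a Cr2 UMI. T barcodes were chosen without any Cd79a UMI, which also leaves out those with B-cell RNA. Their shares are therefore no measure of background Cr2 in gated barcodes.

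The label as B-2 cells was checked against markers that the gate did not use. The barcodes with B-1 markers used for this had 3 or more Cd79a UMIs, a UMI of a B-1 marker, and none of Fcer2a or Cd3. Their choice without Fcer2a, itself a follicular marker, can widen the gap to members, and by how much was not tested. Ighd, the heavy chain of IgD that B-2 cells keep, stood at 219 CPM (WT) and 225 CPM (KO) in members, against 30.1 and 47.2 CPM in barcodes with B-1 markers. Ccr7, a lymph node homing receptor of follicular cells, was at 714 and 688 CPM against 237 and 213 CPM there. Cd9 and Anxa2, which are higher in B-1 cells, were at 45.2 and 109 CPM in WT members and at 139 and 387 CPM in WT barcodes with B-1 markers. Not every marker went this way. Bhlhe40, also listed as a B-1 gene, was higher in members. It was at 109 CPM (WT) and 86.5 CPM (KO) there, against 17.4 and 21.98 CPM in barcodes with B-1 markers. Cxcr5 differed little, at 125 against 112 CPM in WT and 105 against 107 CPM in KO. Among marginal zone genes, Cd1d1 had a UMI in 18.4% of WT and 10.7% of KO members and S1pr3 in 1.94% and 0%, where 0 of 112 allows a share of barcodes with a UMI of up to 2.68%. Mzb1 and Plac8 of the same list were abundant, at 405 and 435 CPM in WT and 442 and 687 CPM in KO members. The plasma cell genes Jchain and Prdm1 had 0 and 4 UMIs in WT and 1 and 8 UMIs in KO members, while Mzb1 is also on that list. The matched Cr2 0 barcodes had an Ighd level of 198 and 189 CPM, so both sides of the cutoff carried the B-2 marker.

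The B-cell receptor libraries, which the choice of members did not use, give an independent description. A single heavy-chain contig was found for 86 of 103 WT and 78 of 112 KO members. Its constant gene was IGHM in 90.7% (82.5 to 95.9) and 93.6% (85.7 to 97.9), and IGHD in the rest, 9.30% and 6.41%. None of these single heavy chains was IGHG or IGHA, which allows shares of up to 3.49% and 3.85%. None used IGHV11-2 or IGHV12-3, V genes known from B-1 cells that bind phosphatidylcholine. Neither V gene was found in the depth-matched Cr2 0 barcodes (0 of 81 and 0 of 57), whereas IGHV11-2 alone took 13.9% and 9.55% of barcodes with B-1 markers. The IGHV1 family took 62.8% and 59.0%, and all Cr2 0 barcodes of the gate had 59.2% and 57.9%. The heavy-chain CDR3, the most variable antigen-contacting loop, was 13.9 ± 2.56 codons (SD, n = 86 barcodes) in WT and 13.8 ± 2.51 (n = 78) in KO members. Cr2 0 barcodes had 13.8 and 13.7 codons. IgM took 92.4% and 91.1% of all Cr2 0 barcodes, inside the members' intervals. In the depth-matched Cr2 0 barcodes IgM took 91.4% in WT and 57 of 57 in KO (93.7 to 100), where the share lies outside the members' interval and the intervals overlap. The IGHV1 family was there at 59.3% and 64.9%. The IGHV5 family was at 14.1% (7.26 to 23.8) of KO members and 1.75% (0.0444 to 9.39) of their matched barcodes, intervals that overlap. A lambda light chain was found in 5.13% (1.41 to 12.6) of WT members and 13.7% (6.77 to 23.8) of KO members, beside 10.1% and 13.5% in depth-matched and 6.79% and 6.68% in all Cr2 0 barcodes.

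The following receptor sequences show where a heavy chain (same V, J and CDR3 nucleotides) occurred in more than 1 member. They are the only clones with 2 member barcodes, 1 in WT and 2 in KO, and each is printed 5′ to 3′ with the first and last codon of the CDR3 in capitals, as the deposited contigs give them.
WT IGHV1-26 IGHJ2: TGTgcatctctcattactacgggctacTGG
KO IGHV1-22 IGHJ1: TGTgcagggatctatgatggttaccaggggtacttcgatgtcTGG
KO IGHV4-1 IGHJ1: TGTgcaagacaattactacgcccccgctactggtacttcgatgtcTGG
The CDR3s are 10, 15 and 16 codons long, all 6 heavy chains are IgM, and within each clone the light chains share a V gene: IGKV6-15, IGKV2-109 and IGLV1.

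Clones differed between the libraries in how often they recurred. Of WT members 4.65% (4 of 86) shared their heavy chain with another barcode of the library, and of KO members 35.9% (28 of 78). Depth-matched Cr2 0 barcodes gave 8.64% and 33.3% and all Cr2 0 barcodes 4.80% and 54.9%, so the contrast between libraries was not limited to members. Of the 26 recurring clones with a KO member, 25 held exactly 2 barcodes and 1, with IGHV5-4, held 3. Whether such a pair is 2 cells or 1 cell under 2 barcodes was not tested. Among those 26 clones, 9 also had a Cr2 0 barcode of the gate and 4 a Cr2 1 barcode, so heavy chains were found on both sides of the cutoff. No member clone of one library occurred in the other.

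Members differed from matched Cr2 0 barcodes in Cd72, Cd22, Ptpn6 and the chemokine receptor Ccr6, which were higher, and in Jund, Ier2, Vim, Tagln2 and Myadm, which were lower. A gene is called here when it reached 50 CPM and its ratio passed 1.3-fold the same way in both libraries. Of 2662 genes measured, 97 were called higher (3.64%) and 80 lower (3.01%). At any size, 811 of them (30.5%) were higher and 732 (27.5%) lower in both libraries, and the others did not go the same way in both. The WT library alone passed 1.3-fold for 467 higher and 426 lower of 2989 genes, and the KO library alone for 406 and 353 of 2873. With 5 matched Cr2 0 barcodes per member in place of 1, 75 (2.87%) and 47 (1.8%) of 2615 were called, 49 and 25 of them also called with 1. These genes were chosen by the contrast that defines the members and are a description. With only 12 WT and 7 KO barcodes at 4 or more Cr2 UMIs the same rule calls 342 and 381 genes. In the KO library, the highest Scrublet doublet scores fell on 9.82% of members but 23.2% of matched Cr2 0 barcodes, and 2 or more heavy chains on 13.4% and 22.3%. In WT these were 0.971% and 2.91%, and 7.77% and 9.71%. Their part in the differences was not tested.

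**Figure D2:**
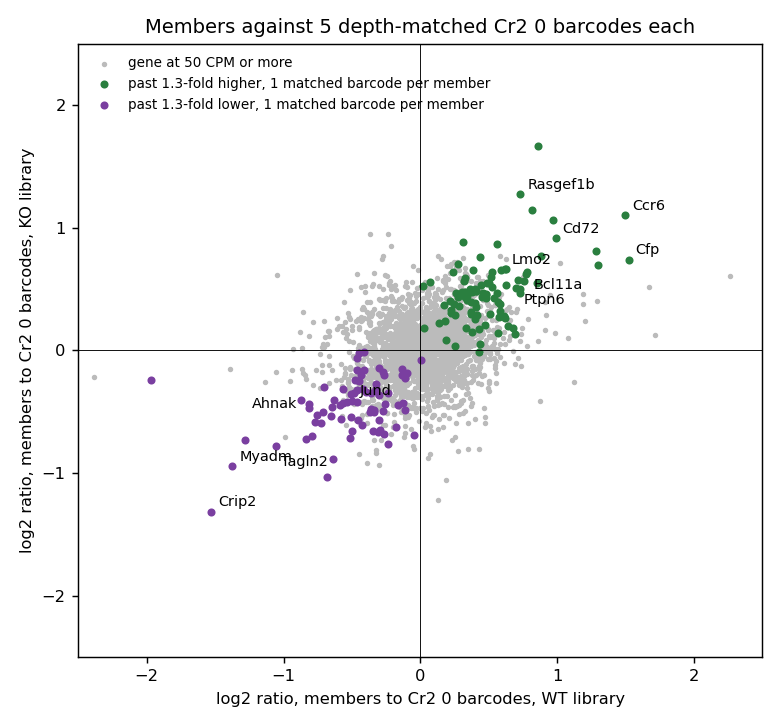
Log2 ratio of members to 5 depth-matched Cr2 0 barcodes each, WT library on the x axis and KO library on the y axis, for 2653 genes at 50 CPM or more (9 lie outside the axes or have no finite ratio). Green and purple points are the genes past 1.3-fold in both libraries with 1 matched barcode per member; Ccr6, Cd72 and Cfp lie high in both libraries and Crip2, Myadm and Tagln2 low in both.

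The genes named as markers of these cells come first. Cd72, an inhibitory co-receptor that recruits the phosphatase SHP-1, was at 201 CPM in WT members and 114 CPM in matched barcodes (ratio 1.76, 1.29 to 2.40). In KO it was at 156 and 80.3 CPM (1.95, 1.36 to 2.82). Lmo2, a transcriptional adaptor of blood and germinal centre cells, was at 229 against 166 CPM in WT (1.38, 1.06 to 1.80) and at 191 against 134 CPM in KO (1.43, 1.07 to 1.93). Both were past the threshold and their intervals lay above 1 in each library. Tnfrsf13c, the BAFF receptor, was at 234 against 187 CPM in WT (1.26, 0.971 to 1.62) and at 180 against 109 CPM in KO (1.65, 1.20 to 2.28), and so missed the threshold in WT.

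The inhibitory receptor list also holds the phosphatase genes Ptpn6, Inpp5d and Ptpn22 and the marker Cd72. Of its 14 measured genes 9 were higher in both libraries and 2 lower in both, with median log2 ratios of 0.45 and 0.53. Over all 7031 genes at 10 CPM or more, 1826 were higher and 1956 lower in both, with medians of -0.01 in each library. Cd22, a sialic acid-binding inhibitory receptor, was at 172 against 79.0 CPM in WT (2.18, 1.53 to 3.15) and 145 against 102 CPM in KO (1.42, 1.01 to 2.0). Ptpn6, which encodes SHP-1 itself, was at 497 against 308 CPM (1.61, 1.34 to 1.95) and 401 against 258 CPM (1.56, 1.27 to 1.92). Fcrl1, which belongs to the Fc receptor-like family, had ratios of 1.72 and 1.49, with a KO interval that reaches 0.934. Fcgr2b, the inhibitory IgG receptor, was at 1.41 and 1.11, and Siglecg was split at 0.94 and 1.24.

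Of 24 B-cell receptor and co-receptor genes 14 were higher in both libraries and 3 lower in both (medians 0.09 and 0.18). The phosphatase CD45 (Ptprc) was at 1.37 and 1.60, the adaptor Blnk at 1.34 and 1.44 and the CD20 gene Ms4a1 at 1.41 and 1.31. Cd81, part of the co-receptor with Cr2, was at 1.05 and 1.15. The 16 BAFF, CD40 and survival genes leaned no single way: 6 were higher in both and 4 lower in both, and the medians had opposite signs (-0.07 in WT and 0.28 in KO). Bcl2, which blocks apoptosis, was at 1.58 (1.11 to 2.27) and 1.47 (0.965 to 2.25), and Tnfrsf13b, the TACI receptor, at 2.03 and 1.38.

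Of 13 MHC class II genes 11 were higher in both libraries and 1 lower, with medians of 0.28 and 0.13. H2-Ab1, a class II beta chain, was at 3904 against 2806 CPM in WT (1.39, 1.31 to 1.48) and 3750 against 3057 CPM in KO (1.23, 1.15 to 1.31). None of the 13 passed the threshold in both libraries with 1 matched barcode per member, and H2-Eb2 did with 5, at 1.49 and 1.71. Of 14 MHC class I genes 8 were higher in both libraries and 2 lower, with medians of 0.10 and 0.07.

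Ccr6, the receptor for CCL20, stood highest among called genes by the lower of its ratios once the myeloid genes Mgl2, Cd209a and Il1b, described below, are set aside. It was at 119 CPM in WT members and 33.6 CPM in matched barcodes (3.53, 2.13 to 6.13), and at 91.5 and 40.1 CPM in KO (2.28, 1.39 to 3.85). A Ccr6 UMI was found in 41 WT and 43 KO members. The other 17 measured homing and adhesion genes did not share this, since only 2 of 18 were higher in both libraries and 8 were lower. S1pr1, an egress receptor, was split at 1.19 and 0.583.

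Cfp, which encodes properdin, a stabiliser of the alternative complement convertase, was at 122 against 57.2 CPM in WT (2.14, 1.40 to 3.31) and 153 against 80.3 CPM in KO (1.91, 1.33 to 2.76). Cd55, a membrane inhibitor of the same convertase, was lower, at 296 against 383 CPM (0.772, 0.631 to 0.944) and 264 against 405 CPM (0.653, 0.531 to 0.801), and missed the threshold in WT. The complement regulator Cr1l was at 1.02 and 0.953.

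Among transcription factors, 12 of 24 were higher in both libraries and 6 lower in both. Bcl11a, needed for early B-cell development, was at 1.60 (1.17 to 2.19) and 1.37 (1.02 to 1.83), and Spib at 1.39 and 1.43. Klf3 was lower, at 0.538 (0.393 to 0.732) and 0.663 (0.480 to 0.910). Klf2, which keeps lymphocytes quiescent and sets their homing receptors, was at 1969 against 2653 CPM in WT (0.742, 0.688 to 0.801). In KO it was at 2163 against 2706 CPM (0.799, 0.743 to 0.861) and missed the threshold there. Id3, an inhibitor of E proteins, was at 1.67 and 2.32, but 1 barcode gave 59% of its UMIs in WT members and 1 gave 46% in KO. Without barcodes that held 2 or more UMIs of genes listed as markers of other cell types its ratios were 0.494 and 1.5.

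By the smaller of its log2 differences in the libraries, Prg4 led the genes lower in members, followed by Crip2, Cdc25b, Fn1 and Cdkn2d. Prg4 and Fn1 had no UMI in WT members, and 1 WT matched barcode held most macrophage marker UMIs of its group, as given below. Crip2, a LIM domain protein, was at 0.340 and 0.513, the cell cycle phosphatase Cdc25b at 0.393 and 0.528, and the cell cycle inhibitor Cdkn2d at 0.546 and 0.549. More abundant genes gave narrower intervals. Vim (vimentin) was at 2163 against 3861 CPM in WT (0.560, 0.523 to 0.600) and 2072 against 3127 CPM in KO (0.663, 0.616 to 0.712). Tagln2, an actin-binding protein, was at 808 against 1759 CPM (0.459, 0.412 to 0.512) and 898 against 1406 CPM (0.638, 0.572 to 0.712). The membrane protein gene Myadm was at 0.374 and 0.559, Ahnak at 0.542 and 0.603, and Lmna (lamin A/C) at 0.501 and 0.574. Among Lmna UMIs of WT members 41% came from 1 barcode. Vim belongs to the actin and membrane trafficking list, of which 11 of 16 were higher in both libraries and 2 lower, and among the higher was Pfn1 (profilin) at 1.47 and 1.31.

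The list of immediate early genes and heat shock proteins had 10 of 19 lower in both libraries and 1 higher, with medians of -0.39 and -0.18. Jund, an AP-1 subunit, was at 0.759 and 0.744, Nr4a1, an orphan receptor induced by antigen, at 0.689 and 0.735, Ier2 at 0.577 and 0.715, and Atf3 at 0.702 and 0.641. These 4 were all past the threshold, and Junb and Ier5 were on the same side at 0.757 and 0.778 and at 0.845 and 0.782. Fos and Jun were split, at 0.603 and 0.722 in WT and 1.24 and 1.35 in KO.

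B-1 genes other than those of the gate were lower in both libraries for 9 of 12 and higher in both for 2 (medians -0.53 and -0.38). Bhlhe40 was among the higher, at 109 against 47.1 CPM in WT and 86.5 against 75.3 CPM in KO. S100a6 was at 770 against 1165 CPM in WT (0.660, 0.586 to 0.744) and 1209 against 1669 CPM in KO (0.724, 0.657 to 0.798). With unmatched Cr2 0 barcodes, whose depth is lower, the mean of the medians of both libraries turned to 0.13, and it was also 0.13 when unmatched barcodes were thinned to 2000 UMIs.

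**Figure D3:**
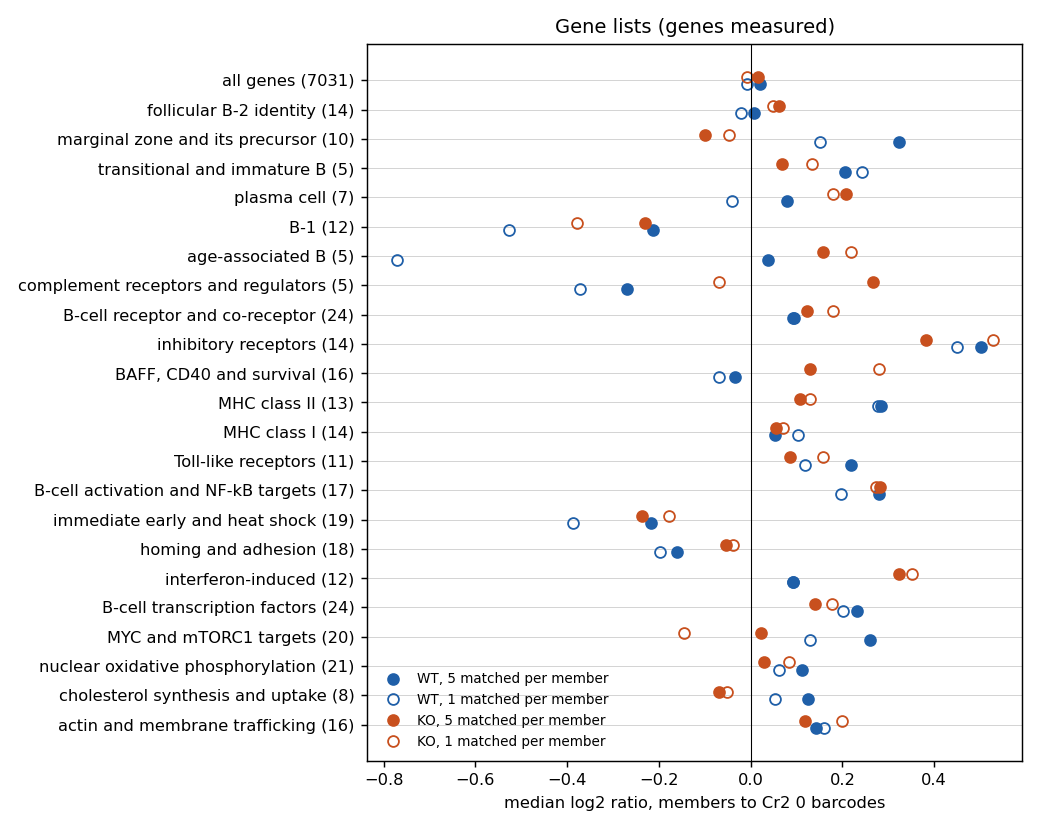
Median log2 ratio of members to matched Cr2 0 barcodes for each gene list with 5 or more measured genes (number in brackets). Filled points use 5 and open points 1 matched barcode per member. The inhibitory receptor list, which includes phosphatase genes, lies furthest to the right in both libraries, and B-1 and immediate early lists lie left of 0.

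The follicular, marginal zone and transitional lists set the members apart little. Of 14 follicular genes 5 were higher and 4 lower in both libraries (medians -0.02 and 0.05), and of 10 marginal zone genes 3 and 3 (0.15 and -0.05). Among the latter Mzb1 was at 0.816 and 0.702 and Plac8 at 0.705 and 0.838. Of 5 transitional genes 3 were higher, led by Vpreb3, a relative of the surrogate light chain, at 1.82 and 2.39, but against 5 barcodes per member its KO ratio was 1.10 and against Cr2 1 barcodes 0.673.

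Barcodes with exactly 1 Cr2 UMI were compared as a middle class. Since the genes shown were chosen for a gap between members and Cr2 0, a middle level is no finding. Vim was at 3746 CPM in Cr2 0, 2915 in Cr2 1, 2360 in Cr2 2 and 1774 in Cr2 3 or more barcodes of WT, and at 3367, 2504, 2234 and 1555 CPM in KO. Ccr6 took the opposite course, with 42.2, 54.1, 103 and 149 CPM in WT and 42.6, 67.1, 87.3 and 105 CPM in KO. Not all called genes stepped this way. The Cr2 1 level lay between those of members and Cr2 0 barcodes for 68 (WT) and 50 (KO) of the 97 genes called higher. It lay at or past the members for 8 and 16. Of the 80 called lower, it lay between for 50 and 40 and at or past the members for 12 and 19. With Cr2 1 barcodes as the comparison, 12 of the 97 genes called higher and 7 of the 80 called lower were still called.

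**Figure D4:**
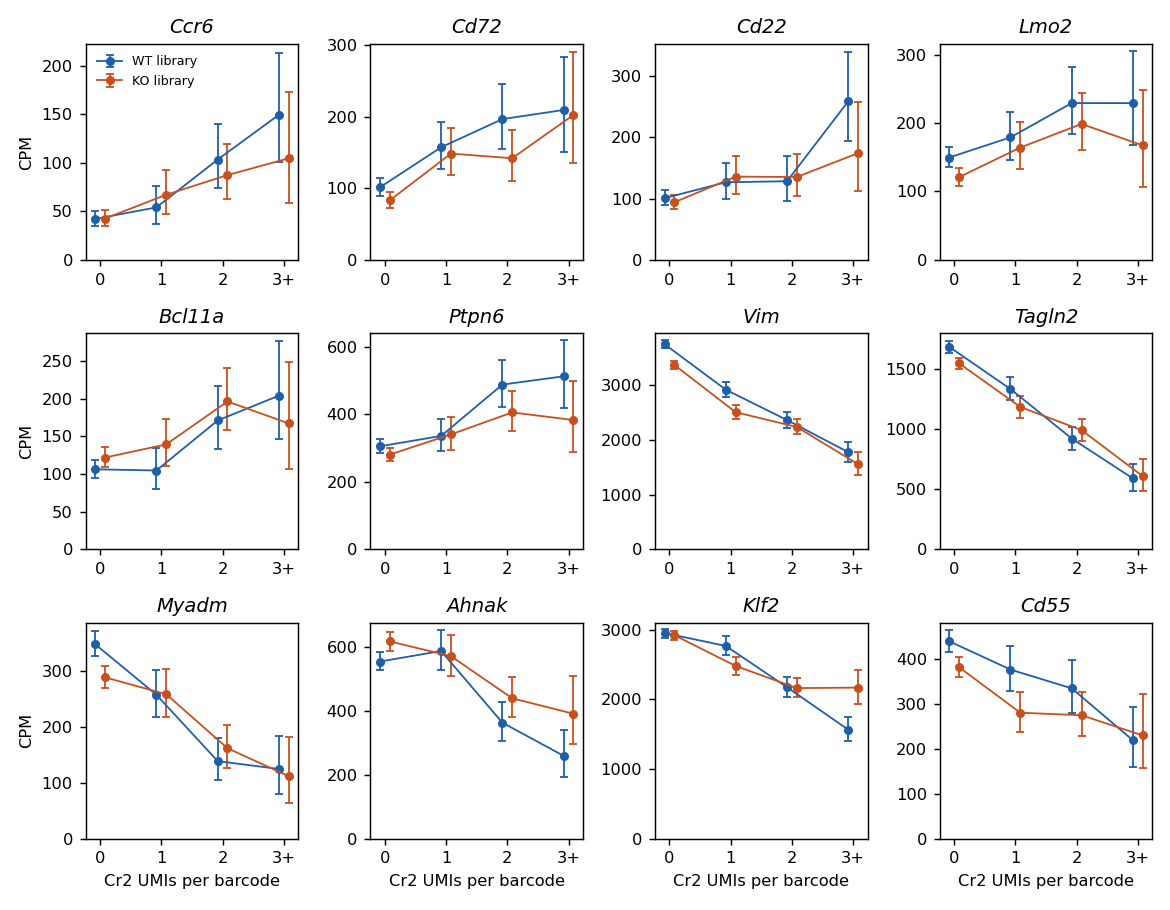
Level in CPM (y axes from 0) of 6 genes higher and 6 genes lower in members, by Cr2 UMIs per barcode, for the 2 libraries. Klf2 and Cd55 were not past the threshold in both libraries with 1 matched barcode per member. Cr2 0 barcodes are matched 5 per member and Cr2 1 barcodes 1 per member, and bars are 95% Poisson intervals; Vim and Tagln2 step down and Ccr6 steps up at each class in both libraries.

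UMIs of genes listed as markers of other cell types were present and unevenly spread. Barcodes with 2 or more UMIs of T, NK, macrophage, dendritic, or mast-cell and granulocyte markers were counted. They made up 36.9% of members and 50.5% of matched barcodes in WT, and 49.1% and 59.8% in KO. The largest ratios in the whole comparison belonged to such genes. Mgl2, a macrophage and dendritic lectin, had 53 UMIs in WT members, 50 of them in 1 barcode, and 79 in KO members in 5 barcodes. Cd209a and Il1b had 40 and 33 UMIs in WT members, 28 and 31 of them in 1 barcode. On the other side, 1 WT matched barcode held 1462 of the 1678 macrophage marker UMIs of its group, and Lyz2, the lysozyme of myeloid cells, was at 95.4 CPM in WT members against 1688 CPM in matched barcodes. Of the 11 macrophage markers 7 were at 0 in WT members and Gata6 and Timd4 in KO members. Lyz2, Apoe and Adgre1 gave 57, 19 and 1 of the 203 macrophage marker UMIs in WT members, and Cebpb gave the rest. Lyz2 had UMIs in 6 and Apoe in 11 of the 103 WT members. Whether the Cebpb UMIs came from other cell types was not tested, so the shares above are not shares of barcodes with foreign RNA. All 6 stromal and follicular dendritic markers, such as Col1a1 and Dcn, which the count of barcodes left out, were at 0 in members of both libraries. With the barcodes of 2 or more such UMIs left out, 39 of the 97 and 32 of the 80 genes were still called, and Ccr6 was at 3.08 and 2.55, Cd72 at 1.81 and 2.76, Ptpn6 at 1.52 and 1.90, Vim at 0.519 and 0.626 and Tagln2 at 0.438 and 0.567.

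Between genotypes, members of KO had less RNA of Irf1 and Pdia6 and more of myeloid genes. A gene is called when it reached 50 CPM in 1 library and its interval lay wholly past 1.5-fold. Of 2915 genes, 15 were called higher in KO (0.515%) and 5 lower (0.172%). Irf1, an interferon-induced transcription factor, had 171 CPM in WT members and 41.6 CPM in those of KO (KO to WT 0.244, 0.151 to 0.380), beside a ratio of 0.535 in Cr2 0 barcodes. Its Cr2 contrast also went 2 ways, at 2.21 (1.54 to 3.20) among WT barcodes against 0.731 (0.418 to 1.26) among those of KO, and the difference was not tested. Pdia6, a protein disulfide isomerase, was at 296 and 131 CPM (0.444, 0.336 to 0.581) beside 0.813. Irf2bp2 (0.396 beside 0.409) and Sfr1 (0.435 beside 0.572) had ratios close to those of the Cr2 0 barcodes.

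Several genes higher in KO were carried by few barcodes, and others were spread. Tyrobp, a signalling adaptor of myeloid and NK cells, had KO UMIs in 53 of 112 members, Anxa1 in 31 and Zeb2 in 29, with ratios of 2.39, 2.72 and 2.73. In Cr2 0 barcodes the ratios of these genes were 1.76, 1.15 and 1.83. With barcodes holding 2 or more UMIs of other-type markers left out, their ratios in members were 1.41, 1.49 and 1.91, and each interval included 1. For Lyz2 the members held 95.4 CPM (WT) and 624 CPM (KO), a ratio of 6.54 (4.94 to 8.80), and 2 barcodes held 77.9% of its 375 KO UMIs. All 70 KO UMIs of the chemokine gene Ccl5 lay in 3 barcodes. Lyz1 and Ly6c2 had no UMI in WT members. Their KO levels were 11.6 and 14.9 times a limit of 3 UMIs over the WT members, which leaves out counting error in KO. The lower ends of the exact intervals were 8.94 and 11.6, and 1 barcode gave 94% of the Lyz1 UMIs. Apoe, a lipid carrier of macrophages, was at 4.55 beside 1.03 in Cr2 0 barcodes, and its log2 ratio turned to -1.58 in members with 1 heavy and 1 light chain. With barcodes of high Scrublet score left out 2 genes were higher and 6 lower. With barcodes holding 2 or more UMIs of other-type markers left out these were 6 and 5. There Irf1 was at 0.162 (0.0627 to 0.351) and Pdia6 at 0.583 (0.377 to 0.881), so Pdia6 was no longer called. The macrophage marker sum, Cebpb included, was 340 CPM in WT and 1206 CPM in KO members. The 2 libraries also differ in depth and in clone recurrence, so genotype and library cannot be told apart.

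**Figure D5:**
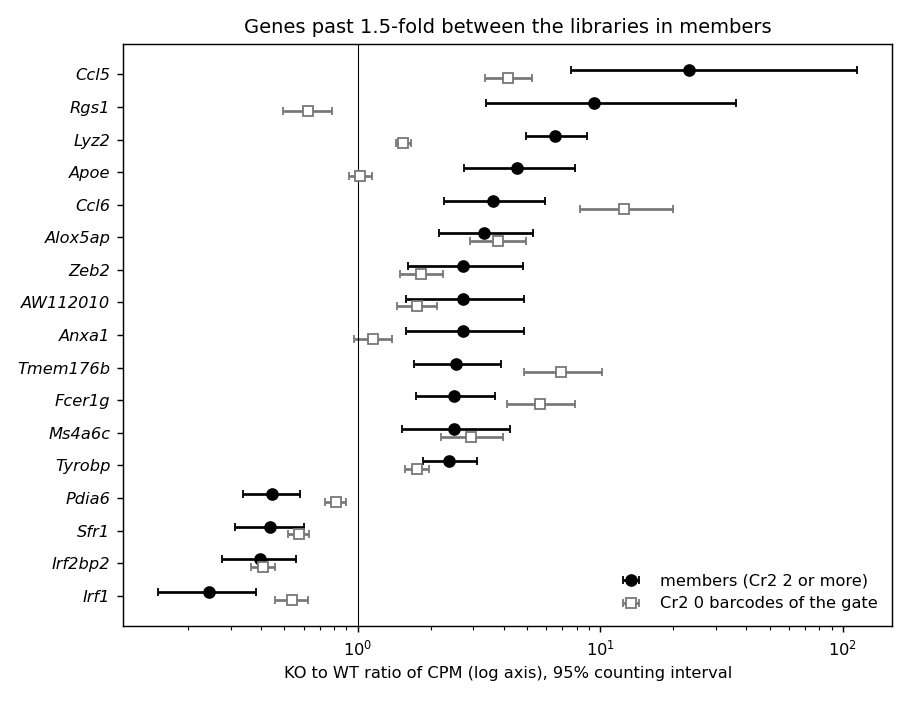
KO to WT ratio of CPM on a log axis with 95% counting intervals for 17 of the 20 genes past 1.5-fold in members (Lyz1 and Ly6c2, at 0 in WT, and 1 gene not reported here are left out). Filled circles are members and open squares Cr2 0 barcodes of the gate; Irf1 and Pdia6 lie further below 1 in members, while Tmem176b, Fcer1g and Ccl6 lie further above 1 in Cr2 0 barcodes.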

How the data were processed

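The deposited expression files hold raw UMI counts for 32285 genes, and the receptor files UMI and read counts per assembled contig. Cell Ranger 6.1.2 made the matrices, per the file headers. The build mm39, Seurat 4.3.0 and another Cell Ranger version, 6.0.1, stand in the submitters' processing notes. Which version gave the counts is therefore uncertain, and no coordinates are printed. Gene names are those of the files. The gene knocked out and some other genes are not reported here.

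Members and gene lists were chosen with earlier results of these data known. Members were matched 1 to 1 to Cr2 0 barcodes on total UMIs within a library. Ratios of summed CPM carry exact conditional binomial 95% intervals, shares Clopper-Pearson and levels Poisson intervals. The limit for a count of 0 is 3 counts. Receptors were joined on the barcode. Scrublet (scanpy 1.11.5) scores were used only as an alternative, leaving out 8.07% (WT) and 18.0% (KO) of barcodes; the main values keep all barcodes. T barcodes had 2 or more Cd3 UMIs and no Cd79a UMI. The ratio code was tested on simulated data.

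Named genes were the markers, the 12 highest and 12 lowest called, 6 each way between genotypes, and up to 4 per list of 29 at 50 CPM. Other list genes given (Fcgr2b, Siglecg, Blnk, Ms4a1, Cd81, Junb, Ier5, Fos, Jun) were added after their values were seen. Antibody and T-cell receptor segments, mitochondrial, ribosomal, haemoglobin, sex-linked, predicted and gate genes were not ranked. Python 3.11.15, numpy 2.4.6, scipy 1.17.1 and pandas 2.3.3 were used.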

Additional observations from a re-analysis of the deposited data

Results flagged for a closer look

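Rgs1, a regulator of G protein signalling, moved in opposite directions in the libraries, with intervals on opposite sides of 1. Its ratio of members to matched Cr2 0 barcodes was 0.0437 (0.0117 to 0.116) in WT and 1.99 (1.12 to 3.65) in KO. The difference was not tested. The values rest on 4 UMIs in 3 WT members and 38 UMIs in 10 KO members, of which 1 barcode gave 32%.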

How the results depend on the processing

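The share of members, the IgM share and the counts of genes were recomputed under each alternative, and 38 of 80 such values stayed within the interval or within 1.5 times of the first value. Thinned to 2000 UMIs, members were 2.09% (WT) and 2.15% (KO) of the gate, an alternative added after seeing the data, 136 genes were lower, and 8 were lower in KO. With Cr2 1 or more after thinning the shares were 13.6% and 15.2%, the genes 54 higher and 49 lower, and 5 higher in KO. With Cr2 at 4 or more they were 0.96% and 0.269%, 342 and 381 genes, and IgM at 100% in KO. Against Cr2 1 barcodes 54 and 25 genes were called. Leaving out high Scrublet scores left 2 genes higher in KO. Without barcodes of 2 or more other-type UMIs the counts were 146 and 141, 6 higher in KO, and IgM at 98.0% in KO. With 1 barcode per clone they were 184 and 147, with 30 higher in KO, and with 1 heavy and 1 light chain 179 and 155, with 29. With 5 Cr2 0 barcodes per member, also added after seeing the data, 47 were lower. Without a CPM filter 919 and 871 genes were called, and 51 higher and 16 lower in KO. A 200 CPM filter gave 14 and 19, and 2 and 2 in KO. A 1.5-fold limit gave 27 and 19. The WT library alone gave 467 and 426 and the KO library alone 406 and 353, since the second library no longer had to pass. Centring on the median ratio gave 85 higher and 88 lower. The other causes were not tested.

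Of 47 called named genes, 36 kept the sign of their mean log2 ratio over both libraries under every alternative that gave a value. A gene split between the libraries can keep that sign, so the count does not show that both libraries stayed alike. The 47 genes gave 528 values, and none where both cell groups of a library held 3 or fewer UMIs. Cdkn2d without other-type barcodes is such a case, and its ratios there were 0.684 in WT and 2.996 in KO, opposite in direction. Mean log2 ratios that turned were, after thinning, Tmem64 (-0.0126), Prg4 (0.42) and Fn1 (0.25), and after thinning first, Ndufa5 (-0.18) and Nfkbie (-0.072). Cfp was at -0.13 with Cr2 at 4 or more. Against Cr2 1 barcodes Vpreb3 was at -0.038, Crip2 at 0.11 and Atf3 at 0.029. Id3 was at -0.22 without other-type barcodes, and Lyz2 at 0.88 with 1 barcode per clone and 0.50 with 1 heavy and 1 light chain. List medians that turned were B-1 (0.13 unmatched and 0.13 thinned), macrophage markers (0.44 thinned), activation and NF-kB targets (-0.31 with Cr2 at 4 or more), and transitional genes (-0.083 with 1 barcode per clone and -0.047 with 1 heavy and 1 light chain). KO to WT log2 ratios in members turned for Sfr1 (0.39 with Cr2 at 4 or more) and Apoe (-1.58 with 1 heavy and 1 light chain). No paired analysis was possible because each genotype has 1 library and no test was run. Depth limits what is seen: members sum to 597660 and 601381 UMIs, so 50 CPM is 29.9 and 30.1 UMIs.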

Other observations

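Barcodes with 2 or more Cr2 UMIs also lay outside the gate. Past the filters, 253 WT and 339 KO barcodes held that many. In otherwise gated barcodes without Fcer2a there were 28 and 69, in those with both Fcer2a and a B-1 marker 53 and 60, and in those with a Cd3 UMI 7 and 9.

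All 8 WT and 15 KO members with 2 or more heavy-chain contigs held different CDR3 sequences. Among lists not described above, the interferon-induced genes had 5 of 12 higher and 1 lower in both libraries (medians 0.09 and 0.35), and nuclear oxidative phosphorylation genes 9 of 21 higher and 0 lower (0.06 and 0.08). B-cell activation and NF-kB targets had 8 of 17 higher and 3 lower in both (medians 0.20 and 0.27), with 2 called higher. Bhlhe40, a stress-induced repressor on the B-1 list, had ratios of 2.31 (1.46 to 3.74) for WT members and 1.15 (0.756 to 1.75) for KO members.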
